A study of Sus scrofa with 9 samples.

Results

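GJA1 and KITLG take part in the exchange between granulosa cells and the oocyte, and the RNA of both was sequenced in porcine granulosa cells, which surround the oocyte in the follicle. The members were the rows with these gene symbols, 2 of 1081 in the deposited table. Primary granulosa cells, labelled wild type, had been treated with sulforaphane, had been given FSH, or were labelled control. Sulforaphane is an isothiocyanate of cruciferous vegetables that activates the antioxidant transcription factor NRF2. FSH is follicle-stimulating hormone of the pituitary, which drives follicle growth. Each group had 3 libraries. The labels name the ovary as the source and give no dose, duration or animal, nor whether replicates were separate cultures. The p-values therefore measure only the spread between these samples, which may be technical.

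Granulosa cells and the oocyte are coupled by gap junctions, channels through which ions, nucleotides and small metabolites pass from cell to cell. GJA1 encodes connexin 43, the main gap junction protein between granulosa cells, while in the mouse the channels on the oocyte are built largely from connexin 37, the product of GJA4. KITLG encodes KIT ligand (stem cell factor), which granulosa cells make as a membrane-bound and a soluble form by alternative splicing, and which acts on the receptor KIT on the oocyte to support its growth.

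Library depth, recovered from both deposited units, lay between 16.6 and 22.3 in units of 1e6 fragments. The table held 6.72% to 8.38% of it, and 919 rows passed a filter of at least 1 FPKM (fragments scaled to transcript length in kilobases and to library depth) in at least 3 libraries. Rows with a small difference from control were nearly absent: the 1st percentile of the size of the log2 difference over tested genes was 0.39 with sulforaphane and 0.37 with FSH. The criteria for rows are not given, so calls against control may partly reflect how rows were chosen. Of 15 listed granulosa markers 4 were in the table (AMHR2, INHBA, HSD17B1 and FST), with a summed level of 56.8 to 72.8 FPKM with sulforaphane, 172 to 188 FPKM with FSH and 66.3 to 70.8 FPKM in controls. Its members did not move together: with sulforaphane AMHR2, HSD17B1 and INHBA fell (the falls of HSD17B1 and INHBA not passing with TMM factors) and FST rose, and with FSH AMHR2 fell 2.36-fold while the others rose. The 11 oocyte markers and the 8 leukocyte markers listed are not analysed here. Of 9 genes listed as theca markers, only CYP11A1 and LHCGR were in the table. They summed to 74.9 to 137 FPKM with sulforaphane, 530.3 to 611 FPKM with FSH and 139 to 166 FPKM in controls. The sum was mostly CYP11A1, with a mean of 558 FPKM with FSH beside 3.59 FPKM for LHCGR. This pair alone does not identify theca cells. Stromal and smooth muscle markers (8 of 14 in the table, none at 0) gave a sum that was mostly ACTA2, at 2358 to 2581 FPKM with sulforaphane, 3119 to 3179 FPKM with FSH and 7369 to 7666 FPKM in controls. All 8 fell with both treatments except PDGFRB, which rose 1.38-fold with sulforaphane, and CNN1, which rose 1.52-fold with FSH. The part of these markers in the results below was not tested, and in bulk RNA fewer cells of a type and less RNA per cell cannot be told apart. Of 7 listed endothelial markers only KDR, which encodes a VEGF receptor, was in the table, and it did not pass the filter. Its level was 0.87 to 1.67 FPKM with sulforaphane, 0.25 to 0.36 FPKM with FSH and 0.08 to 0.1 FPKM in controls. Sulforaphane replicate 3 stood apart within its group for GJA1, and calls of named genes and counts of lists that change without it are given both ways.

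GJA1 was among the most abundant transcripts of the table, ranking 8 of 1081 by mean FPKM. It is annotated on chromosome 1 from 40988818 to 41002129 (Sscrofa11.1, identifier 100518636), with 1 RefSeq transcript. The level of GJA1 was 598, 652 and 498 FPKM in sulforaphane replicates 1, 2 and 3. With FSH it was 622, 617 and 599 FPKM, and in controls 320.1, 325 and 323 FPKM. Every treated library thus lay above every control library, and the sulforaphane and FSH libraries overlapped.

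The means of GJA1 were 583 ± 78.1 FPKM with sulforaphane, 613 ± 12.0 FPKM with FSH and 323 ± 2.50 FPKM in controls (SD, n = 3 each). The replicates spread by very different amounts, with a coefficient of variation of 13.4% with sulforaphane, 1.96% with FSH and 0.775% in controls. The sulforaphane spread came largely from replicate 3, the lowest treated library. The lowest library held 18235 counts, so counting error was small beside the sulforaphane spread. The part of counting error in the narrow control spread was not tested. The estimated counts were 33230, 37870 and 27377 with sulforaphane, 34123, 31496 and 41148 with FSH, and 18235, 20788 and 18401 in controls.

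**Figure D1:**
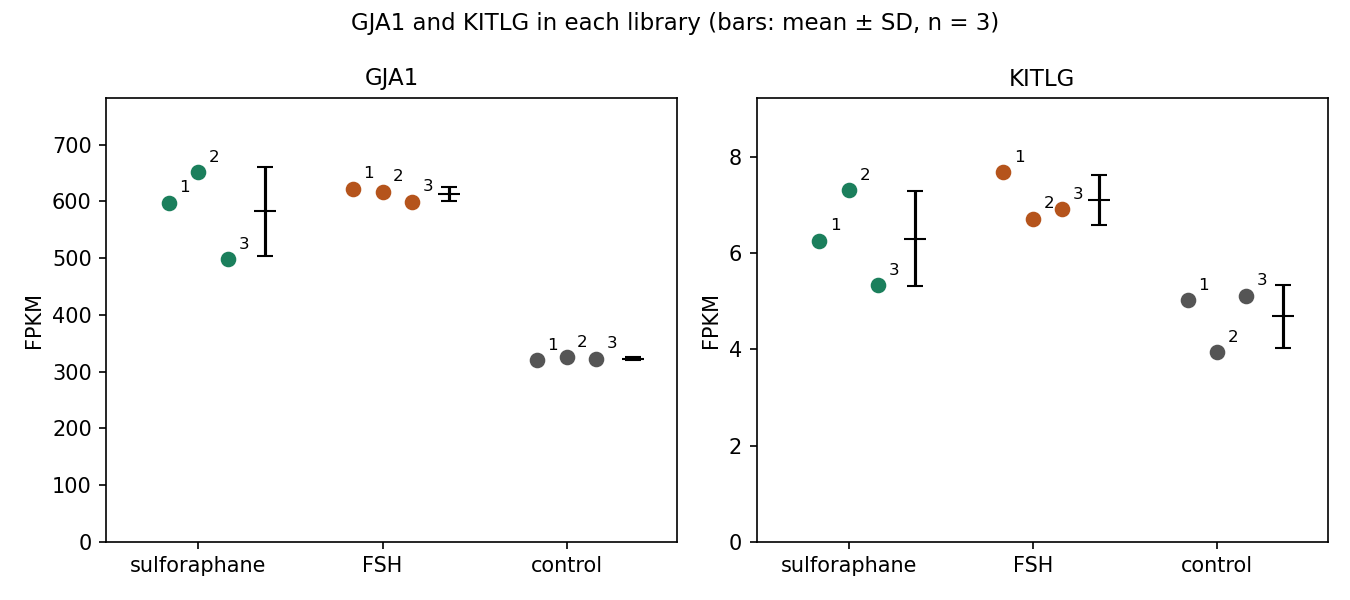
FPKM of GJA1 (left) and KITLG (right) in each library, with replicate numbers beside the points and the mean ± SD of 3 libraries beside each group. GJA1 lies at 498 to 652 FPKM in treated libraries and at 320.1 to 325 FPKM in controls, and KITLG lies at 5.34 to 7.69 FPKM in treated libraries and at 3.94 to 5.12 FPKM in controls.

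KITLG was a far rarer transcript, ranking 448 of 1081 by mean FPKM. It is annotated on chromosome 5 from 94016992 to 94110219 (identifier 397509), with 3 RefSeq transcripts. The level of KITLG was 6.26, 7.31 and 5.34 FPKM with sulforaphane, 7.69, 6.72 and 6.92 FPKM with FSH, and 5.02, 3.94 and 5.12 FPKM in controls. Here too all treated libraries lay above all controls, although sulforaphane replicate 3 exceeded the highest control only narrowly. The means were 6.30 ± 0.986 FPKM with sulforaphane, 7.11 ± 0.512 FPKM with FSH and 4.69 ± 0.654 FPKM in controls (SD, n = 3 each). Per length, the mean FPKM of GJA1 was 92.4 times that of KITLG with sulforaphane, 86.2 times with FSH and 68.8 times in controls.

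The order of group means was FSH, sulforaphane, control for both genes. For both genes FSH and sulforaphane overlapped, while each was separate from control. Neither gene has an overlapping annotated gene, and no other gene annotated within 1 Mb on either side (9 around GJA1 and 18 around KITLG) was in the table. The counts of both genes were whole numbers in all 9 libraries.

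The deposited counts and FPKM of KITLG ordered the control libraries differently. In estimated counts, KITLG stood at 385, 516 and 399 with sulforaphane, 506, 408 and 599 with FSH, and 304, 366 and 309 in controls. Divided by library depth this gave 21.3, 27.4 and 22.4 counts per 1e6 fragments (CPM) with sulforaphane, 28.4, 24.6 and 26.9 with FSH, and 16.4, 17.6 and 16.7 in controls. Control replicate 2 was therefore the highest control by counts and the lowest by FPKM. By counts the controls had a coefficient of variation of 3.70% (16.9 ± 0.626 CPM, SD, n = 3), and by FPKM theirs was 13.9%. With 3 libraries of 304 to 366 counts, so small a spread by counts says little about reproducibility.

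The quantity that links both units is the transcript length used for the FPKM, which is the count divided by FPKM and depth. For GJA1 this implied length was 3.08 kb in every library. For KITLG it was 3.41, 3.74 and 4.19 kb with sulforaphane, 3.70, 3.66 and 3.88 kb with FSH, and 3.27, 4.47 and 3.26 kb in controls. The longest and the shortest value were thus both in controls, and the groups overlapped in full. Over the 9 libraries the coefficient of variation of the KITLG length was 10.9%, against a median of 0.125% over 607 tested genes with at least 100 counts in every library. Only 3 of these genes (0.494%) varied more, and 474 of them (78.1%) varied by under 1%. The table gives no values per transcript, and the part of transcript forms in these lengths was not tested.

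**Figure D2:**
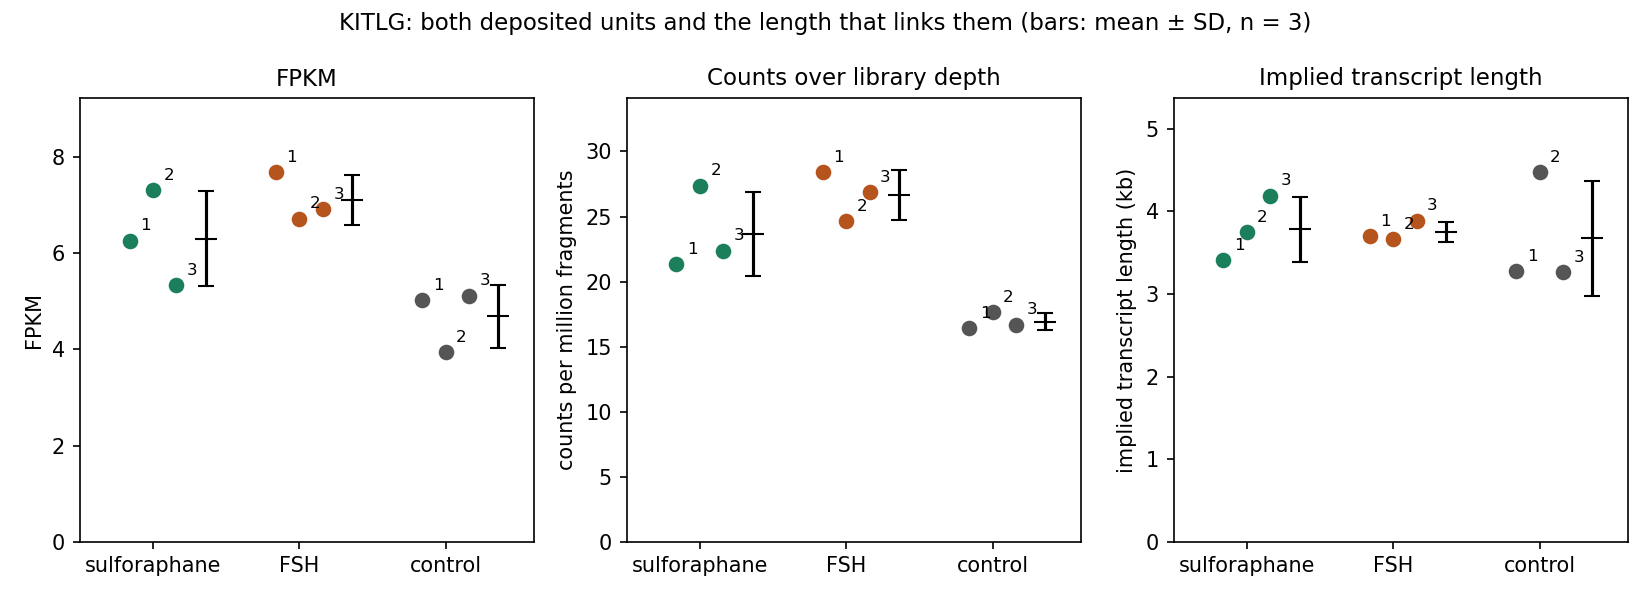
KITLG in each library as FPKM (left), as estimated CPM over library depth (middle) and as the transcript length in kb implied by both (right), with the mean ± SD of 3 libraries. Control replicate 2 has the longest implied length, 4.47 kb, and is the lowest control in FPKM (3.94) and the highest in CPM (17.6).

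Sulforaphane against control asked whether the NRF2 activator altered these transcripts. Both genes rose. GJA1 was 1.81-fold higher, a log2 fold change of 0.85 ± 0.0864 (SE, adjusted p = 2.67e-06). KITLG was 1.40-fold higher, a log2 fold change of 0.48 ± 0.114 (SE, adjusted p = 0.00152; edgeR quasi-likelihood test on the counts over all 919 tested genes, Benjamini-Hochberg). Of the tested genes 99.6% were called in this comparison, 34.3% higher and 65.3% lower, so the call itself sets neither gene apart, and the direction is that of the smaller share. The signed fold change of GJA1 exceeded that of 86.9% of tested genes and that of KITLG exceeded 71.1%, in a comparison where most genes fell. By size in either direction, 44.4% of tested genes changed more than GJA1 and 85.7% changed more than KITLG.

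Without sulforaphane replicate 3 the log2 fold change was 0.95 for GJA1 (adjusted p = 8.17e-14) and 0.52 for KITLG (adjusted p = 6.50e-05, both edgeR). The ratio of the KITLG means was 1.34 by FPKM and 1.40 by CPM, and limma on log2(FPKM + 1), a scale that understates the change of low genes, gave 0.36 (adjusted p = 0.0130). The same limma test without control replicate 2, tried after the values had been seen, gave 0.26 and an adjusted p = 0.0632, which ended the call.

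FSH against control asked how the same transcripts responded to the hormone under which follicles grow. GJA1 rose 1.90-fold, a log2 fold change of 0.93 ± 0.0865 (SE, adjusted p = 1.70e-06), and KITLG rose 1.57-fold, a log2 fold change of 0.65 ± 0.113 (SE, adjusted p = 0.000235; edgeR, Benjamini-Hochberg). Here 97.9% of tested genes were called, 55.3% higher and 42.7% lower. The signed fold change of GJA1 exceeded that of 85.7% of tested genes and that of KITLG exceeded 75.3%. By size in either direction, 26.4% of tested genes changed more than GJA1 and 47.8% changed more than KITLG. With limma on log2(FPKM + 1) KITLG gave 0.52 (adjusted p = 0.00190), and without control replicate 2 it gave 0.42 (adjusted p = 0.00975).

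Sulforaphane against FSH was tested directly, because both comparisons above use the same 3 control libraries. Neither gene passed. The log2 difference of GJA1 was -0.07 with a 95% interval of -0.26 to 0.11 (adjusted p = 0.523), and that of KITLG was -0.17 with an interval of -0.41 to 0.07 (adjusted p = 0.233; edgeR, Benjamini-Hochberg). In the same comparison 55.7% of tested genes were called, 12.9% higher and 42.8% lower with sulforaphane. The intervals allow for GJA1 a level up to 0.26 lower or 0.11 higher on the log2 scale with sulforaphane. The sign was not fixed: it turned positive for GJA1 without sulforaphane replicate 3 (0.028, adjusted p = 0.677) and for both genes under the other scalings, and without sulforaphane replicate 2 the fall of KITLG passed (-0.29, adjusted p = 0.0323).

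The scaling between libraries set the size of the fold changes of both genes against control but not their direction. TMM and median-ratio factors take most genes as unchanged, and table sums take the table to stand for the library. The table held 6.72% to 8.38% of depth. With library depth as the scale, 99.6% (sulforaphane) and 97.9% (FSH) of tested genes were called against control. With TMM factors 613 and 865 of 919 were called, so these shares themselves depend on the scaling. Whether TMM, median-ratio or table-sum scaling takes up part of a treatment difference, or library depth adds to it, was not tested. With library depth, the median over all tested genes was -0.56 on the log2 scale for sulforaphane against control, and with TMM factors it was -0.09, with 317 genes called higher and 296 lower in place of 315 and 600. GJA1 shifted with it to 1.34 and KITLG to 0.97. For FSH against control the median was 0.41 with library depth and 0.58 with TMM factors, where GJA1 was at 1.10 and KITLG at 0.83. For sulforaphane against FSH the median was -0.18 with library depth and 0.12 with TMM factors, the calls were 119 higher and 393 lower with library depth and 320 higher and 327 lower with TMM factors, and with these GJA1 moved to 0.24 and KITLG to 0.14. With median-ratio factors, which gave 388 higher and 315 lower genes there, GJA1 stood at 0.31 and passed (adjusted p = 0.0280, edgeR).

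**Figure D3:**
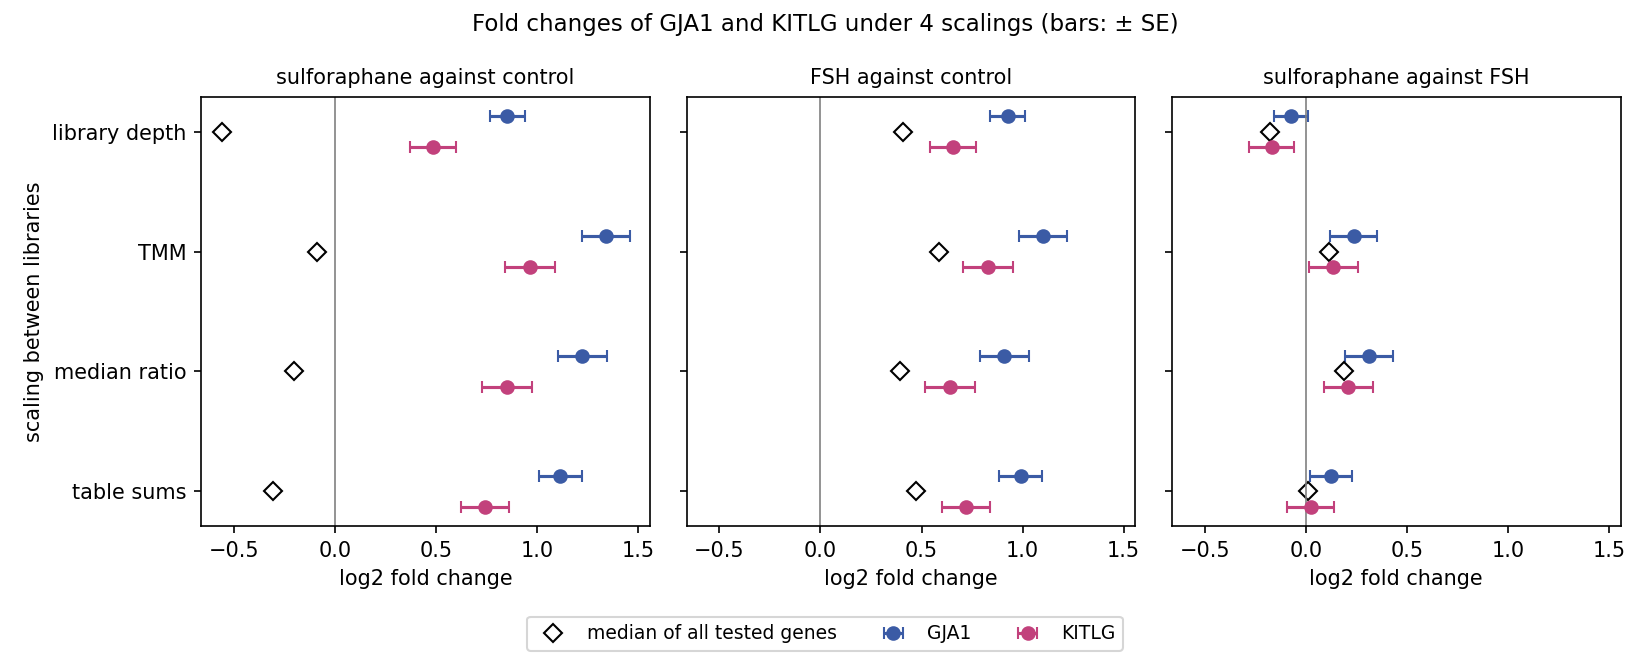
Log2 fold changes (x axis) of GJA1 and KITLG with their SE in the 3 comparisons, under 4 ways of scaling the libraries (y axis), beside the median of all tested genes (open diamonds). Against control both genes lie right of 0 under every scaling shown, with GJA1 from 0.85 to 1.34 for sulforaphane, while in sulforaphane against FSH the sign differs between scalings.

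A ratio of both genes within a library needs no scaling. By FPKM, KITLG was 1.05%, 1.12% and 1.07% of GJA1 with sulforaphane, 1.24%, 1.09% and 1.15% with FSH, and 1.57%, 1.21% and 1.59% in controls. The sulforaphane libraries all lay below the controls, whereas FSH replicate 1 lay above control replicate 2. By estimated counts KITLG was 1.16%, 1.36% and 1.46% of GJA1 with sulforaphane, 1.48%, 1.295% and 1.46% with FSH, and 1.67%, 1.76% and 1.68% in controls, where both treatments lay fully below control.

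On the log2 scale the FPKM ratio of KITLG to GJA1 with sulforaphane minus that in controls was -0.42 (exact two-sided permutation p = 0.1, the smallest that 3 against 3 libraries allow), and with FSH minus controls it was -0.32 (exact permutation p = 0.2). By counts the differences from control were -0.37 with sulforaphane and -0.27 with FSH (exact permutation p = 0.1 for both). Sulforaphane against FSH gave -0.10 by FPKM (exact permutation p = 0.2) and -0.09 by counts (exact permutation p = 0.6). The design could not reach a threshold of 0.05 here.

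**Figure D4:**
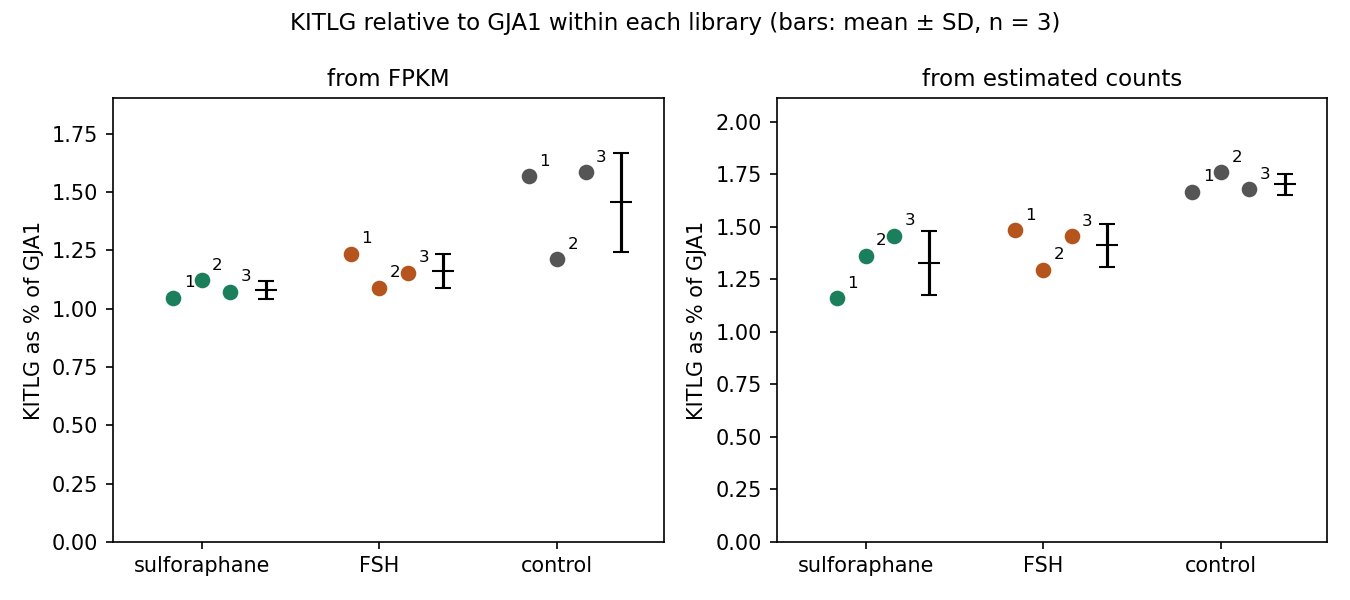
KITLG as a percent of GJA1 within each library, from FPKM (left) and from estimated counts (right), with the mean ± SD of 3 libraries. Controls lie at 1.21% to 1.59% by FPKM and 1.67% to 1.76% by counts, and sulforaphane libraries at 1.05% to 1.12% and 1.16% to 1.46%.

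The wider machinery of communication between granulosa cell and oocyte was followed through 155 listed genes, of which 24 were in the table and 20 were tested. Beside GJA1 and KITLG these were 18 genes. With sulforaphane 8 of the 18 rose and 10 fell, beside shares of 34.3% higher and 65.3% lower over all tested genes, with a median log2 fold change of -0.56 beside -0.56 over all tested genes. With FSH 8 rose, 8 fell and 2 did not pass (8, 10 and 0 without sulforaphane replicate 3), beside shares of 55.3% higher and 42.7% lower, with a median of -0.31 beside 0.41 over all tested genes (edgeR, Benjamini-Hochberg). With TMM factors 8 rose, 7 fell and 3 did not pass under each treatment. Over all 919 tested genes TMM factors gave 317 higher and 296 lower with sulforaphane, and 512 higher and 353 lower with FSH. Without sulforaphane replicate 3, FSH against control gave 512 higher and 407 lower of these 919.

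Among the channel proteins and their partners, GJB2 (connexin 26) was the only other connexin in the table and was too low to be tested. It stood at 0.327 ± 0.142 FPKM with sulforaphane, 0.270 ± 0.0964 FPKM with FSH and 0.647 ± 0.164 FPKM in controls (SD, n = 3 each). CAV1, caveolin 1, a membrane scaffold that binds connexin 43, fell with both treatments, to 5.77 ± 0.669 FPKM with sulforaphane and 5.09 ± 0.472 FPKM with FSH, against 10.1 ± 0.520 FPKM in controls. PKP2, plakophilin 2 of desmosomes and intercellular junctions, rose with both, to 6.97 ± 0.956 FPKM with sulforaphane and 3.40 ± 0.0819 FPKM with FSH, against 2.35 ± 0.267 FPKM in controls. CAV1 and PKP2 kept these directions with TMM, median-ratio and table-sum scaling.

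The deposited annotation places GJA1 in the KEGG pathway Gap junction with 7 other rows, all tested. Of the 8 genes 6 rose and 2 fell with sulforaphane, and 7 rose and 1 fell with FSH, beside the shares of 34.3% higher with sulforaphane and 55.3% higher with FSH over all tested genes. Without sulforaphane replicate 3 the sulforaphane counts were 5 higher, 2 lower and 1 not passing, beside 306 higher and 601 lower over all 919 tested genes. PRKACB, a catalytic subunit of the cyclic AMP-dependent kinase, rose with both treatments (6.30 ± 1.19 FPKM with sulforaphane and 6.22 ± 0.447 FPKM with FSH, against 4.76 ± 0.217 FPKM in controls). PRKCB, a protein kinase C, also rose with both (2.92 ± 0.714 FPKM with sulforaphane and 3.28 ± 0.260 FPKM with FSH, against 1.74 ± 0.231 FPKM in controls). PRKG2, the cyclic GMP-dependent kinase II, was at 2.0, 1.75 and 4.79 FPKM with sulforaphane, 0.660, 0.780 and 0.550 FPKM with FSH and 0.320, 0.230 and 0.220 FPKM in controls, so that replicate 3 was the highest sulforaphane library here and the lowest for GJA1. Its rise with FSH (log2 fold change 1.35, adjusted p = 0.0123, edgeR) did not pass in limma on log2(FPKM + 1), at 0.40 (adjusted p = 0.0899). The tubulin genes TUBB3 and TUBB4A, some of whose counts were not whole, fell with sulforaphane and rose with FSH, and the fall of TUBB4A did not pass with TMM factors (log2 fold change -0.46, adjusted p = 0.141). ITPR2, a calcium channel of the endoplasmic reticulum, rose with sulforaphane at an adjusted p = 0.0486, a call lost without sulforaphane replicate 3 (log2 fold change 0.11, adjusted p = 0.305, edgeR).

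Of the genes around KIT ligand, ADAM19 was the only one tested besides KITLG itself and encodes a metalloprotease of a family that releases membrane-bound growth factors. ADAM19 fell 3.43-fold with sulforaphane and 1.43-fold with FSH, to 0.717 ± 0.0115 FPKM with sulforaphane and 1.72 ± 0.177 FPKM with FSH, against 2.47 ± 0.222 FPKM in controls. In the KEGG pathway PI3K-Akt signaling, which lies downstream of KIT and holds KITLG, 27 of 32 annotated rows were tested. With sulforaphane 13 rose and 14 fell (13 and 7 with TMM factors, where 7 did not pass). With FSH 15 rose, 11 fell and 1 did not pass (15, 12 and 0 without sulforaphane replicate 3). With library depth the shares over all tested genes were 34.3% higher and 65.3% lower with sulforaphane, and 55.3% higher and 42.7% lower with FSH. Over all 919 genes, TMM factors gave 317 higher and 296 lower with sulforaphane. Leaving out sulforaphane replicate 3 gave 512 higher and 407 lower with FSH. The median log2 fold change was -0.49 with sulforaphane, beside -0.56 over all tested genes, and 0.41 with FSH, beside 0.41 over all tested genes.

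Signals from the oocyte reach granulosa cells as GDF9, BMP15 and fibroblast growth factors. SMAD5, a transducer of BMP signals, rose 1.41-fold with sulforaphane and 1.29-fold with FSH. SMAD9, a transducer of the same class, rose 2.05-fold with sulforaphane and fell by 0.38 on the log2 scale with FSH, a call that was lost with TMM factors (log2 fold change -0.21, adjusted p = 0.155). FGFR2, a fibroblast growth factor receptor, fell to 30.9 ± 7.20 FPKM with sulforaphane and 44.1 ± 1.07 FPKM with FSH, against 62.0 ± 3.91 FPKM in controls. The Notch ligand JAG1 fell to 1.25 ± 0.155 FPKM with FSH, against 2.71 ± 0.465 FPKM in controls, and its sulforaphane level of 1.98 ± 0.142 FPKM was a fall whose call was lost with TMM (log2 fold change 0.03, adjusted p = 0.885), median-ratio and table-sum scaling (edgeR).

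FSCN1 encodes fascin, which bundles actin in the transzonal projections that carry gap junctions from granulosa cells to the oocyte surface. In contrast to GJA1 it fell with both treatments. Its level was 244, 215 and 215 FPKM with sulforaphane, 358, 358 and 354 FPKM with FSH, and 551, 536 and 566 FPKM in controls, with no overlap between the 3 groups. The log2 fold change was -1.29 ± 0.0698 (SE) for sulforaphane and -0.63 ± 0.0689 (SE) for FSH. Both falls kept their call with TMM, median-ratio and table-sum scaling.

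Some genes of the EGF-like signals and of the matrix in which the cumulus expands moved in opposite directions under the treatments. VCAN, the proteoglycan versican, was at 38.0, 36.5 and 47.3 FPKM with sulforaphane, 149, 147 and 154 FPKM with FSH and 79.9, 76.8 and 87.7 FPKM in controls, a fall with sulforaphane and a rise with FSH. PTX3, pentraxin 3, which crosslinks that matrix, was at 2.84 ± 0.281 FPKM with sulforaphane and 8.06 ± 0.767 FPKM with FSH, against 5.28 ± 0.649 FPKM in controls, a fall and a rise. HBEGF, an EGF receptor ligand, rose 1.42-fold with sulforaphane (adjusted p = 0.0177, and 0.0506 in limma on log2(FPKM + 1)) and did not pass with FSH (log2 fold change -0.39, adjusted p = 0.0652, and 0.00669 without sulforaphane replicate 3, edgeR). Its implied length varied more than that of KITLG. TGFA, another such ligand, rose 1.42-fold with sulforaphane and 1.35-fold with FSH. ADAMTS1, a protease that cuts versican and had some counts that were not whole, rose with sulforaphane (log2 fold change 0.86) and fell with FSH (-0.50).

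Among other growth factors that granulosa cells make, FST (follistatin, which binds activin) rose 1.75-fold with sulforaphane and 2.54-fold with FSH, and VEGFA, the vascular growth factor, rose 3.79-fold with sulforaphane and 2.83-fold with FSH. BMP4 fell with both, 2.07-fold with sulforaphane and 1.84-fold with FSH. LIF, a cytokine that acts on cumulus cells and oocytes, fell with sulforaphane (log2 fold change -0.78, adjusted p = 0.00155) but not with TMM factors (-0.29, adjusted p = 0.215), and did not pass with FSH (-0.23, adjusted p = 0.219, and 0.0288 without sulforaphane replicate 3, edgeR). INHBA, the activin subunit, some of whose counts were not whole, rose 2.88-fold with FSH and fell 1.58-fold with sulforaphane, the fall being lost with TMM factors (-0.19, adjusted p = 0.0881, edgeR).

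**Figure D5:**
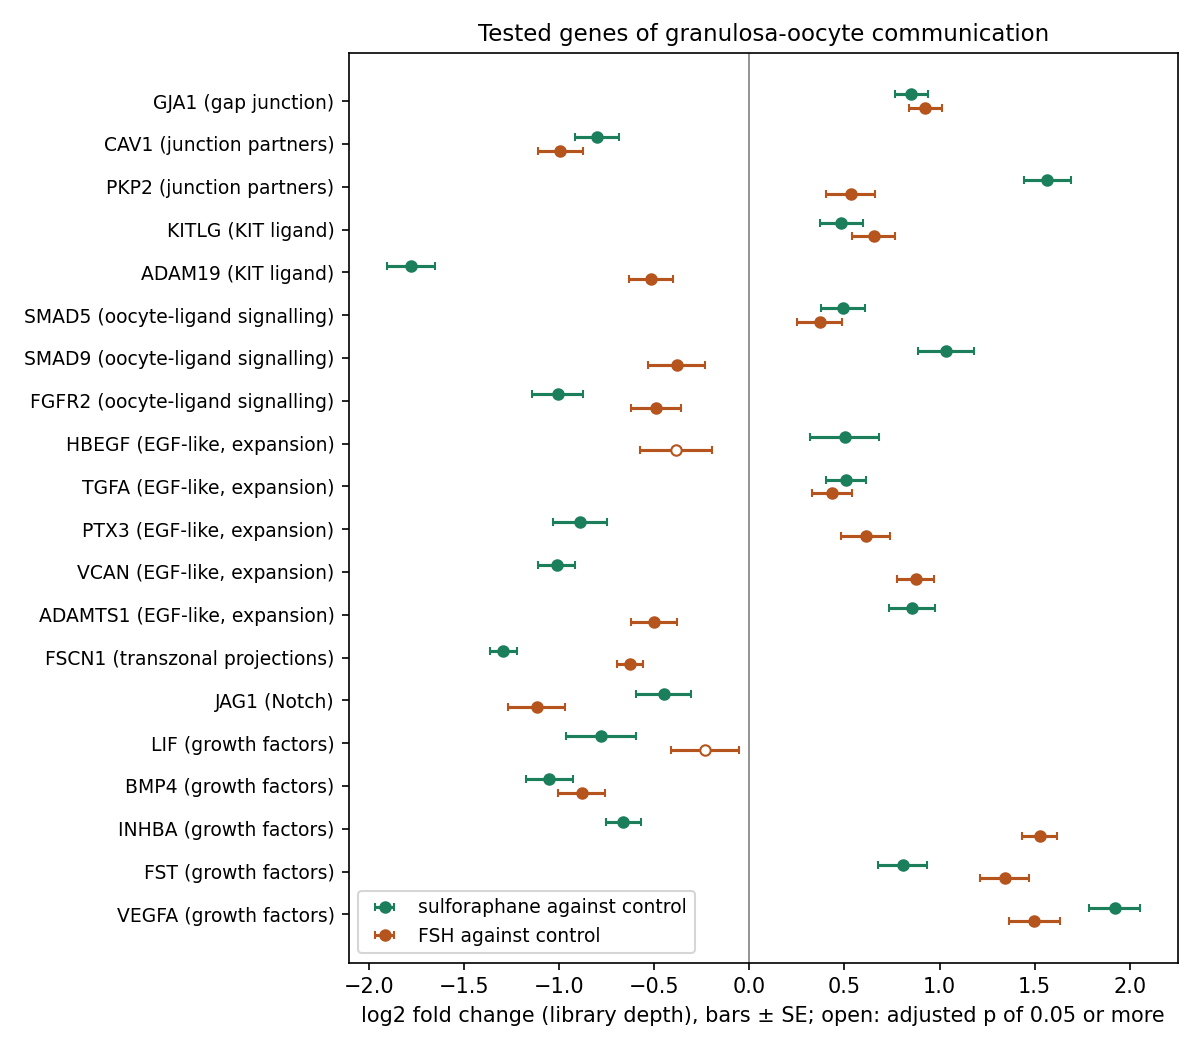
Log2 fold change (x axis) with its SE of the 20 tested genes of communication between granulosa cells and oocyte, with library depth as the scale, for sulforaphane and FSH against control, with filled points for an adjusted p under 0.05. GJA1 and KITLG lie right of 0 for both treatments, at 0.85 and 0.93 for GJA1 and 0.48 and 0.65 for KITLG, while FSCN1, CAV1, ADAM19, FGFR2 and BMP4 lie left of 0 for both.

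The genes closest in pattern were found by the root-mean-square distance between log2(FPKM + 1) profiles over the 9 libraries, each centred on its own mean, among 487 tested genes with a mean of at least 5 FPKM. For GJA1 they were MYC, ENTPD7, ZNF697, HK2 and MPI, at distances of 0.13 to 0.17 log2 units, beside a median of 0.67 over all 487. MYC, a growth-promoting transcription factor, was at 17.0 ± 0.302 FPKM with sulforaphane, 16.1 ± 1.02 FPKM with FSH and 9.41 ± 0.255 FPKM in controls. HK2, hexokinase 2, which commits glucose to glycolysis, was at 32.4 ± 8.96 FPKM with sulforaphane, 31.9 ± 2.36 FPKM with FSH and 15.6 ± 2.32 FPKM in controls. MPI interconverts mannose and fructose phosphates, ENTPD7 hydrolyses nucleoside triphosphates (some of its counts were not whole), and ZNF697 is a zinc finger protein.

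For KITLG the nearest were LOC100524475 (annotated as transducin-like enhancer protein 1, some of its counts not whole), PDK1, IRGQ, SRGAP1 and SLC16A1, at distances of 0.10 to 0.14 log2 units beside a median of 0.51. PDK1, pyruvate dehydrogenase kinase 1, was at 17.1 ± 2.07 FPKM with sulforaphane, 19.0 ± 1.10 FPKM with FSH and 12.9 ± 1.03 FPKM in controls. SLC16A1, a lactate and pyruvate transporter, was at 23.5 ± 2.91 FPKM with sulforaphane, 25.4 ± 1.29 FPKM with FSH and 17.8 ± 0.785 FPKM in controls. GJA1 and KITLG were 0.23 log2 units apart. With 487 candidates, KITLG was the 38th nearest gene to GJA1, and GJA1 the 55th nearest to KITLG.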

How the data were processed

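The members and gene lists were chosen with earlier results of these data known. The authors deposited 1 table with FPKM and an estimated count per gene and library, per the file headers. Tools in the submitters' processing notes, which state no roles, are HISAT2, Bowtie2 2.2.8, StringTie 1.3.1, fastp, edgeR and DESeq2, with the build Sscrofa11.1. For the counting and the row selection, the tool and criteria are "not given in the sources used here". Counts were not whole in 143 of 1081 rows. Estimated counts were rounded. Relative depth was the median ratio of count to FPKM over 354 genes (every library at or above 100 counts and 5 FPKM), and its absolute scale came from 10 genes whose ratio to their annotated span reached a common maximum within 0.1%. The main test was edgeR 4.0.16 (R 4.3.3, quasi-likelihood, all 9 libraries, 3 group means, these depths as library sizes), with Benjamini-Hochberg adjustment at 0.05. Common dispersion was 0.0118. The test was checked on simulated counts in which most genes were unchanged and all shared the same dispersion. In these data most tested genes were called against control, so that check covers a different setting. Alternatives used limma 3.58.1, DESeq2 1.42.0, TMM, median-ratio and table-sum scaling, other pseudocounts and filters, 2-group fits, a replicate block and each library left out. Named genes were GJA1, KITLG, the tested members of the lists, and the 5 nearest patterns to each member. The 2 KEGG groups came from the deposited annotation and were chosen after the table was seen.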

Additional observations from a re-analysis of the deposited data

How the results depend on the processing

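Against control, GJA1 kept its direction and its call under all 21 alternatives in both comparisons (log2 fold change 0.76 to 1.34 for sulforaphane and 0.91 to 1.10 for FSH), as did KITLG for FSH (0.32 to 0.83). All alternatives drew on the same libraries and rows, in which small differences from control were nearly absent. A kept call is therefore no independent support. KITLG for sulforaphane ranged from 0.22 to 0.97, and its call ended only in limma on log2(FPKM + 1) without control replicate 2 (0.26, adjusted p = 0.0632), a setting added after the data were seen. With each library left out in turn the values were 0.76 to 0.95 and 0.91 to 0.94 for GJA1, and 0.37 to 0.55 and 0.61 to 0.71 for KITLG. For sulforaphane against FSH the sign turned with TMM, median-ratio and table-sum scaling, at 0.24, 0.31 and 0.12 for GJA1 and 0.14, 0.21 and 0.025 for KITLG (the cause was not tested), and left-out libraries gave -0.16 to 0.028 for GJA1 and -0.29 to -0.10 for KITLG. The log2 ratio of KITLG to GJA1 kept its sign in all alternatives, at -0.55 to -0.35, -0.45 to -0.25 and -0.15 to -0.05 for sulforaphane against control, FSH against control and sulforaphane against FSH. A mean of at least 5 FPKM left 489, 485 and 292 called genes in place of 915, 900 and 512, of 489 tested. With the replicate number as a block the fold changes of GJA1 were 0.85, 0.92 and -0.08 and those of KITLG 0.48, 0.66 and -0.18, with no call changed. The labels do not say whether equal replicate numbers mark paired libraries. Only 2 of 9 same-numbered pairs correlated above 0.1 in their deviations from group means (-0.18 to 0.21). So few libraries cannot exclude pairing. With 3 libraries a group, depth limits KITLG more than GJA1, at 304 to 599 counts a library.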

Other observations

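Among the 607 tested genes with at least 100 counts in every library, LIF, HBEGF and CEP83 were the 3 whose implied transcript length varied more than that of KITLG, with coefficients of variation of 16.6%, 15.6% and 11.5% over the 9 libraries. LIF and HBEGF, like KITLG, encode secreted or membrane-bound ligands, and these genes were singled out after their values had been seen. The implied length of HBEGF was 1.94, 2.18 and 1.82 kb with sulforaphane, 1.48, 2.0 and 2.48 kb with FSH and 2.01, 2.24 and 1.63 kb in controls. SMAD5 and SLC25A36, a mitochondrial nucleotide carrier, ranked just below KITLG. They shared its longest library: the SMAD5 length was 5.91 kb in control replicate 2, against 4.43 to 5.24 kb in the other libraries, and that of SLC25A36 was 3.19 kb, against 2.23 to 2.69 kb. Of the 133 of these 607 genes whose length varied by at least 1%, 30 (22.6%) had their longest value in control replicate 2 and 22 (16.5%) in sulforaphane replicate 3, beside 10 to 15 in each of the other 7 libraries. The cause was not tested.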
